A study of Mus musculus with 12 samples.

Results

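Fatty acid oxidation was described at the level of RNA in epididymal white adipose tissue (eWAT) through 9 genes, which are the fatty acid oxidation enzymes Cpt1a, Cpt1b, Cpt2, Acadvl, Acadl, Acadm, Hadha and Hadhb and the receptor gene Ppara. The members were chosen by name. All 9 were found among the 49315 genes of the count table, and all 9 passed the filter on low counts, which left 18702 genes for testing. RNA-seq had been made from 12 male mice on a high-fat diet (HFD, 60% fat, 12 weeks), with 3 mice in each of 4 groups and 1 library per mouse. Flox mice carried loxP-flanked Mir181a2b2 alleles (Mir181a2b2 flox/flox) without Cre, and KO mice lacked the Mir181a2b2 locus in all tissues (Mir181a2b2-/-), so that no difference can be assigned to 1 cell type. Each genotype received weekly intraperitoneal injections of vehicle or of methotrexate (MTX, an antifolate used against inflammation) at 1 mg/kg, which the authors call a high dose. The age of these mice is not given in the sources used here. The comparisons ask whether loss of the microRNA locus or MTX moved these genes, and whether the response to MTX differed between genotypes.

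Mitochondrial beta-oxidation shortens fatty acids to acetyl-CoA and feeds electrons to the respiratory chain. Long-chain acyl groups enter the mitochondrion through the carnitine shuttle, in which carnitine palmitoyltransferase 1 of the outer membrane (Cpt1a in liver and most tissues, Cpt1b in muscle and brown fat) is the controlled step and Cpt2 of the inner membrane restores the CoA ester. Acyl-CoA dehydrogenases with a preference for very long (Acadvl), long (Acadl) and medium (Acadm) chains then introduce the double bond, and the trifunctional protein of Hadha and Hadhb carries out the remaining steps for long chains. PPARα, the product of Ppara, is a fatty acid-activated nuclear receptor that is known to turn on many of these genes. White adipocytes mainly store fat, and their PPARγ outweighs PPARα.

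Depth ranged from 19495310 to 23976469 counts per library. Only 1 of the 12 libraries, flox MTX replicate 4, held any counts for the 2 entries of the deleted locus, and it held 2, so the knockout could not be checked from these data. The labelled tissue was present in every library, since none of the 14 adipocyte markers was at 0 and their summed level was 18635 to 78332 CPM (counts relative to library size, with TMM scaling also for marker sums). Marker levels of other cell types moved with the groups. The summed level of 12 macrophage markers was 598 to 1126 CPM in flox vehicle, 4406 to 8174 in KO vehicle, 869 to 4672 in flox MTX and 5659 to 9156 in KO MTX. The 12 markers of epididymis epithelium had a summed level of 3962, 10898 and 1231 CPM in replicates 1, 3 and 4 of the flox vehicle group. Flox MTX replicate 1 had 427 CPM of them, and no other library had more than 17.5. In bulk tissue, fewer cells of a type and less RNA per cell cannot be told apart. The part of these cells in the results that follow was not tested, and the values are given beside them where they move together.

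The microRNAs of the deleted locus are shown because all comparisons of genotype turn on them. Mature miR-181a-5p from Mir181a-2 lies on the plus strand of chr2:38852741-38852763 and miR-181b-5p from Mir181b-2 on that of chr2:38853845-38853868 (RefSeq, GRCm38.p6). Capitals mark the seed, bases 2 to 8, which is identical in both.
miR-181a-5p: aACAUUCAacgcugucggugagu
miR-181b-5p: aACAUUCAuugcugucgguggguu
The complement of this seed (TGAATGT, given strand only) was searched in the longest annotated 3′ UTR of each gene (GENCODE M21). It was found in 0 of the 9 members and in 16.3% of 20979 coding genes. These UTRs ranged from 113 bases in Acadvl to 1892 in Cpt1a, and the median over all genes was 954. The absence of a match says only that these letters are not in these annotated UTRs.

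Per length of annotated exon, the acyl-CoA dehydrogenases of long and medium chains were the most abundant members. The lengths join all annotated exons of a gene, from 2005 bases in Acadl to 8730 in Hadha, and can exceed those of the RNA present. The order below depends on them. Without division by length, mean levels in flox vehicle mice were 372 CPM for Acadm, 264 for Acadl, 245 for Hadha and 215 for Hadhb. Levels were expressed as reads per kilobase of exon and per unit of depth (RPKM, from TMM-scaled CPM and GENCODE M21 exon lengths) as the median of 12 libraries. Acadl stood at 152.7 RPKM and Acadm at 95.8. Cpt2 (37.1), Acadvl (36.2), Hadhb (32.4) and Hadha (31.5) followed, and the ranges of these 4 over the libraries overlapped. Cpt1a was lower, at 17.5 RPKM. The ranges of neighbours in this order, Acadl with Acadm, Acadm with Cpt2 and Hadha with Cpt1a, also overlapped. Ppara (0.570) and Cpt1b (0.319) were close to the lower end of what could be counted, with 15 to 112 and 5 to 45 counts per library, and their order does not exceed their spread. Within a member, the highest library was between 2.17 (Cpt1a) and 7.26 (Ppara) times the lowest.

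**Figure D1:**
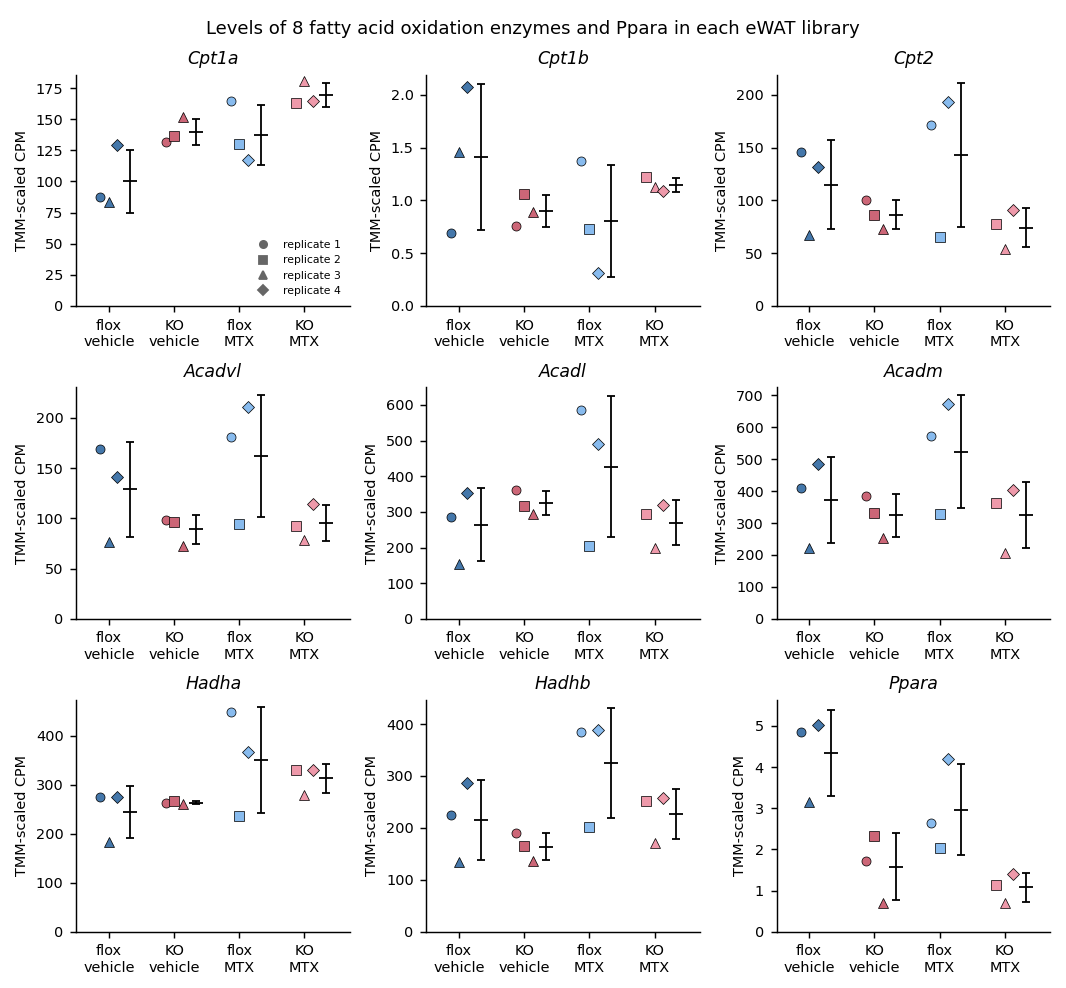
TMM-scaled CPM (linear axis from 0) of the 9 members in each of the 12 libraries, by group, with marker shapes for the replicate number and the mean ± SD of 3 mice beside the points. Ppara was lower in KO than in flox mice under vehicle and under MTX without overlap, whereas the points of Cpt2, the acyl-CoA dehydrogenases, Hadha and Hadhb overlapped between genotypes.

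Loss of Mir181a2b2 went with less Ppara RNA, and Ppara was the only member called in any comparison. A call required both a p below 0.1, adjusted by Benjamini-Hochberg over all genes tested, and a fold change of at least 1.5 in edgeR's quasi-likelihood test, and 31.7% of all genes tested were called in KO against flox mice under vehicle. Ppara (ENSMUSG00000022383, chromosome 15, 85734983 to 85802819, plus strand, coordinates of GRCm38 here and for the other members) was 4.86, 3.15 and 5.03 CPM in flox vehicle replicates 1, 3 and 4. It was 1.71, 2.33 and 0.703 CPM in KO vehicle replicates 1, 2 and 3. All 3 KO libraries were below all 3 flox libraries, and KO replicate 3 was the lowest. Mean levels were 4.35 ± 1.04 CPM in flox and 1.58 ± 0.821 CPM in KO mice (SD, n = 3 per group). The log2 fold change was -1.45 (SE 0.46), that is 2.73-fold lower in KO mice, with an edgeR adjusted p of 0.0345. Without KO vehicle replicate 3 the log2 fold change was -1.09 and the adjusted p 0.109, so that the call rests on that library. Without flox vehicle replicates 1 and 3, the libraries with the most epididymis RNA, the log2 fold change was -1.66 from the single flox vehicle library that remained. That library, replicate 4, still had 1231 CPM of epididymis and 277 CPM of testis germ cell markers. The KO vehicle libraries had 4.62 to 9.98 and 47.4 to 50.4 CPM of them, so that this fit does not remove such RNA from the comparison. The flox vehicle library with the highest epididymis sum (replicate 3) had the lowest Ppara of its group.

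Under MTX the difference in Ppara between genotypes had the same size. The values were 2.65, 2.05 and 4.19 CPM in flox MTX replicates 1, 2 and 4 and 1.13, 0.693 and 1.40 CPM in KO MTX replicates 2, 3 and 4. The groups did not overlap here either. The log2 fold change was -1.45 (SE 0.46, edgeR adjusted p = 0.119), which was not called. No gene of the table was called in this comparison by edgeR (0%), whereas DESeq2 gave Ppara an adjusted p of 0.0284 and called 16.6% of the genes it tested. MTX against vehicle gave Ppara -0.56 (SE 0.44, adjusted p = 0.402) in flox and -0.56 (SE 0.46, adjusted p = 0.815) in KO mice, both with overlapping groups. The difference between the responses of the genotypes was -0.00062 on the log2 scale, with an adjusted p near 1. KO MTX replicate 3 and KO vehicle replicate 3, which had the lowest Ppara of all libraries at 16 and 15 counts, also had the highest macrophage sums, 9156 and 8174 CPM.

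The receptor was also compared with its relatives within each library. The ratio of Ppara to Pparg counts was 0.0433, 0.0315 and 0.0306 in flox vehicle and 0.0136, 0.0222 and 0.00779 in KO vehicle mice. It was 0.0204, 0.0215 and 0.0197 in flox MTX and 0.0104, 0.0107 and 0.0124 in KO MTX mice. Ppara therefore made up a smaller part relative to Pparg in every KO library than in any flox library of the same treatment, and in flox mice under MTX than under vehicle. Each of these differences had an exact permutation p of 0.1 (two-sided), the smallest that 3 against 3 mice allow, and 0.25 after adjustment over 20 comparisons of ratios, which were chosen after values had been seen.

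**Figure D2:**
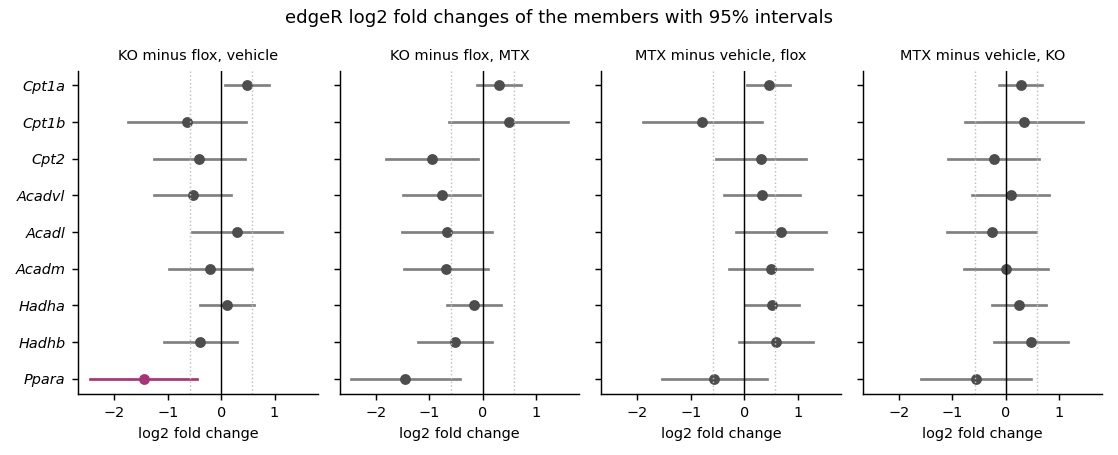
Log2 fold changes of the 9 members in 4 comparisons (edgeR), with 95% intervals as lines, the fold limit of 1.5 as dotted lines and the called member in purple. Ppara under vehicle (-1.45) was the only call, its value under MTX was the same with a similar interval, and Cpt2, Acadvl, Acadl and Acadm lay between -0.66 and -0.95 in KO against flox mice under MTX.

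Cpt1a, the enzyme of the controlled step, was higher in each KO than in each flox library under vehicle, the opposite sign to Ppara. Cpt1a (ENSMUSG00000024900, chromosome 19, 3322334 to 3385733, plus strand) was 87.8, 83.3 and 129 CPM in flox vehicle and 131, 136 and 152 CPM in KO vehicle mice. The highest flox library and the lowest KO library were close to each other. The log2 fold change was 0.48 (SE 0.18, 95% interval 0.08 to 0.89) with an edgeR adjusted p of 0.0725, which passed the limit on p but not that on fold. Of all genes tested, 37.9% passed the limit on p without regard to fold and 48.1% had groups without overlap, against 2 of the 9 members (Cpt1a and Ppara) in each case. Without flox vehicle replicate 4, Cpt1a was called, at 0.72 (adjusted p = 0.00943), in a fit that called 33.9% of all genes. Without flox vehicle replicates 1 and 3 together the value was 0.12. MTX against vehicle gave an estimate of the same sign in each genotype, neither of them called. Cpt1a was 164, 129.9 and 118 CPM in flox MTX mice, 0.46 above flox vehicle (SE 0.18, adjusted p = 0.107), and 163, 181 and 165 CPM in KO MTX mice, 0.28 above KO vehicle (SE 0.18, adjusted p = 0.760). All 3 KO MTX libraries were above all 3 KO vehicle libraries. Under MTX the KO libraries were 0.30 above the flox libraries (SE 0.18, adjusted p = 0.328), with 1 flox library among them.

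Cpt1b (ENSMUSG00000078937, chromosome 15, 89416405 to 89425863, minus strand), the muscle and brown fat form, was at most 2.08 CPM, in flox vehicle replicate 4. It was 0.694, 1.46 and 2.08 CPM in flox vehicle and 0.756, 1.06 and 0.890 CPM in KO vehicle mice. It was 1.37, 0.727 and 0.313 CPM in flox MTX and 1.22, 1.13 and 1.09 CPM in KO MTX mice. No difference exceeded the spread, with adjusted p between 0.298 and 0.905, although the KO MTX libraries were above the KO vehicle libraries. In GENCODE M21, 81.4% of its exon bases are shared with Gm44502, a gene on the same strand which is not in the count table. Markers of skeletal muscle, which expresses Cpt1b, summed to 23.4 to 55.0 CPM over all libraries.

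Cpt2 (ENSMUSG00000028607, chromosome 4, 107903981 to 107923610, minus strand), the inner membrane partner, was 146, 67.1 and 132 CPM in flox vehicle and 100.4, 86.5 and 72.7 CPM in KO vehicle mice. Under MTX it was 171, 65.6 and 193 CPM in flox and 77.3, 54.0 and 90.9 CPM in KO mice. Flox vehicle replicate 3 and flox MTX replicate 2 stood at the level of the KO libraries, whereas the other flox libraries were higher. KO against flox gave -0.41 (SE 0.39, adjusted p = 0.455) under vehicle and -0.95 (SE 0.39, edgeR adjusted p = 0.170) under MTX, where DESeq2 called it at an adjusted p of 0.0878. MTX against vehicle gave 0.32 (SE 0.39) in flox and -0.22 (SE 0.39) in KO mice, neither of which was called.

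The dehydrogenases followed Cpt2 more closely than Cpt1a. Acadvl (ENSMUSG00000018574, chromosome 11, 70010183 to 70015411, minus strand) was 169, 76.6 and 141 CPM in flox vehicle, 98.8, 96.0 and 72.5 in KO vehicle, 182, 94.0 and 211 in flox MTX and 92.7, 78.4 and 114 in KO MTX mice. KO against flox gave -0.53 (SE 0.33, adjusted p = 0.244) under vehicle and -0.77 (SE 0.33, edgeR adjusted p = 0.183) under MTX. On the opposite strand, Dvl2 shares 42.9% of the Acadvl exon bases. Dvl2 had 283 to 583 counts against 1547 to 3890 for Acadvl, and reads of these 2 genes cannot be separated where the count was made without strand, which is not stated.

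Acadl (ENSMUSG00000026003, chromosome 1, 66830839 to 66863277, minus strand) was 286, 153 and 354 CPM in flox vehicle and 362, 318 and 295 CPM in KO vehicle mice. Under MTX it was 586, 205 and 491 CPM in flox and 293, 197 and 319 CPM in KO mice. The order of the genotypes was thus opposite in the vehicle and MTX means, 0.30 (SE 0.38) and -0.66 (SE 0.38), but the interaction of -0.96 (SE 0.54) was not called (edgeR adjusted p = 0.421). Acadm (ENSMUSG00000062908, chromosome 3, 153922357 to 153944632, minus strand), whose deficiency is the best known defect of this pathway in humans, was 409, 222 and 487 CPM in flox vehicle and 386, 332 and 254 CPM in KO vehicle mice. It was 571, 329 and 672 CPM in flox MTX and 364, 207 and 403 CPM in KO MTX mice. Its log2 fold changes between genotypes were -0.20 (SE 0.36) under vehicle and -0.69 (SE 0.36) under MTX, and neither was called. The ratio of Acadl to Acadm counts was 0.700, 0.689 and 0.727 in flox vehicle and 0.938, 0.957 and 1.16 in KO vehicle mice without overlap (exact permutation p = 0.1, adjusted p = 0.25). Under MTX it was 0.622 to 1.03 in flox and 0.792 to 0.954 in KO mice, which overlapped.

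Hadha and Hadhb, the subunits of the trifunctional protein, lie head to head on chromosome 5, and their RefSeq starts are 273 bases apart (30154980 on the minus and 30155253 on the plus strand). The Hadhb window of 250 bases before to 50 after its start (chr5:30155003-30155302, plus strand, GRCm38.p6) is shown because 228 of its 300 bases are also in the window of Hadha. The windows of Cpt1a (chr19:3323051-3323350, plus) and Ppara (chr15:85735526-85735825, plus) are shown because these were the members whose genotypes did not overlap under vehicle. Capitals mark matches to the 4 short motifs named after the sequences, on either strand, where neighbouring matches may touch.
Hadhb: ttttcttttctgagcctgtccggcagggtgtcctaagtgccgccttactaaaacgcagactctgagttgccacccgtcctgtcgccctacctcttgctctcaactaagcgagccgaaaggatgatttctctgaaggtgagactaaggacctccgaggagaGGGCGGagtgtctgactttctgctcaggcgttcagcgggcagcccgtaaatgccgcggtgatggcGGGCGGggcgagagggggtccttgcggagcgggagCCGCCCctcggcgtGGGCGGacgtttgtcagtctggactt
Cpt1a: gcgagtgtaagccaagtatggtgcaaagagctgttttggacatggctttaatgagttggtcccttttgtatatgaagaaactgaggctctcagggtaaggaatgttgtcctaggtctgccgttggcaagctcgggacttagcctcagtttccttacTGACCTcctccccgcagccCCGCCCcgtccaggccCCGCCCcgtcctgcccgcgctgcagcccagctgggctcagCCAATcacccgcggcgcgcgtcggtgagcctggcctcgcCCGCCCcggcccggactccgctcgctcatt
Ppara: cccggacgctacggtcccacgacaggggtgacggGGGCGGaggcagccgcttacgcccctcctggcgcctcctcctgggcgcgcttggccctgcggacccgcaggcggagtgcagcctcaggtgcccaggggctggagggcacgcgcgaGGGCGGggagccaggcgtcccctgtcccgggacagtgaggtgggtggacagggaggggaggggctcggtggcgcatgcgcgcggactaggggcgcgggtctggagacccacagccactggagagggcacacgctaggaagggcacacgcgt
Windows of 8 members were found in the RefSeq table, all but that of Cpt1b. GGGCGG, the letters of the GC box, was found in 6 of the 8 (Cpt1a, Cpt2, Acadl, Hadha, Hadhb and Ppara) and in 35.9% of 27025 windows of the same length. The only match of Hadha lies in the 228 shared bases and is the same site as the Hadhb match at -90. The windows of Hadha and Hadhb are therefore not independent in these counts. AGGTCA, the hexamer that nuclear receptors bind, was found in Cpt1a, Acadm and Acadvl and in 16.0% of all windows. The DR1 arrangement used by PPAR, a direct repeat of this hexamer with 1 base between the copies, was found in none of the 8 and in 0.0444% of all windows. TCAAGGTCA of the ERR receptors was also found in none of the 8 and in 0.407% of all windows. CCAAT, the CCAAT box, was found in Cpt1a alone of the 8, against 37.9% of all windows. The TATA box letters TATAAA were in none of the 8 and in 14.2% of all windows. The GC content was 60.7% for Hadhb, 62.3% for Cpt1a and 74.7% for Ppara, against a median of 52.7% over all windows. A match is a description of letters and does not show binding, and elements outside these windows were not searched.

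Hadha (ENSMUSG00000025745, chromosome 5, 30118304 to 30155162, minus strand) was 275, 184 and 275 CPM in flox vehicle, 263, 267 and 261 in KO vehicle, 450.0, 236 and 368 in flox MTX and 330, 279 and 331 in KO MTX mice. Hadhb (ENSMUSG00000059447, chromosome 5, 30155248 to 30184593, plus strand) was 225, 134 and 286 CPM in flox vehicle, 190, 166 and 137 in KO vehicle, 384, 202 and 388 in flox MTX and 252, 172 and 258 in KO MTX mice. The subunits varied together over the 12 libraries (Pearson r = 0.839, Spearman rho = 0.818, and r = 0.894 for deviations from the group means, given as a description). For Hadha, KO against flox gave 0.11 (SE 0.23) under vehicle and -0.17 (SE 0.23) under MTX, and for Hadhb -0.39 (SE 0.31) and -0.52 (SE 0.31), none of which was called. The ratio of Hadha to Hadhb counts did not overlap between the genotypes. It was 1.22, 1.37 and 0.960 in flox vehicle against 1.39, 1.61 and 1.90 in KO vehicle mice, where the nearest libraries were 1.37 and 1.39. Under MTX it was 1.17, 1.17 and 0.948 in flox against 1.31, 1.63 and 1.28 in KO mice. In each case the exact permutation p was 0.1 and the adjusted p 0.25. The ratio of Cpt1a to Cpt2 was 0.600, 1.24 and 0.982 in flox vehicle and 1.31, 1.57 and 2.09 in KO vehicle mice, also without overlap. Under MTX it was 0.958, 1.98 and 0.610 in flox and 2.11, 3.34 and 1.82 in KO mice, where flox MTX replicate 2 fell among the KO libraries.

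**Figure D3:**
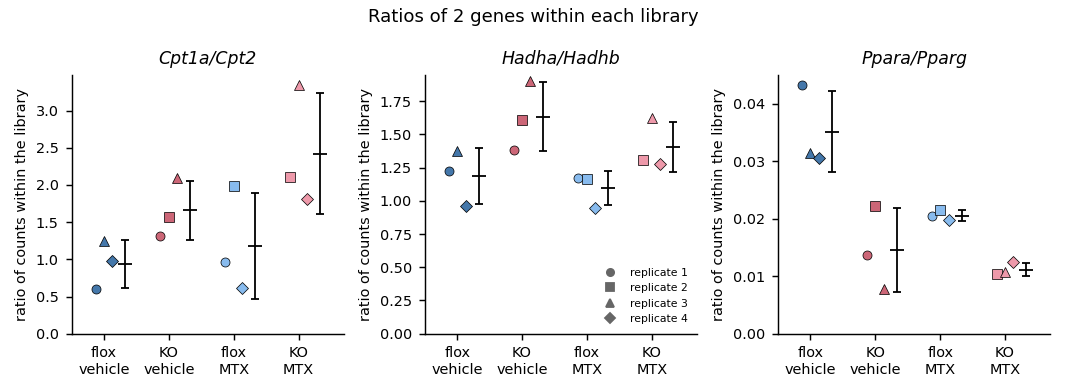
Ratios of counts of Cpt1a to Cpt2, Hadha to Hadhb and Ppara to Pparg within each library (linear axes from 0), with the mean ± SD of 3 mice per group. Hadha/Hadhb was higher and Ppara/Pparg lower in every KO library than in any flox library of the same treatment, and Cpt1a/Cpt2 separated the genotypes under vehicle only (0.600 to 1.24 against 1.31 to 2.09).

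Counted over the 9 members, KO against flox under vehicle gave 3 higher and 6 lower estimates, with a median of -0.39 against -0.06 over all genes tested, and 1 of 9 was called. Under MTX 7 of 9 estimates were lower in KO mice (median -0.66, all genes -0.05) and none was called. At an unadjusted p below 0.05, 3 of the 9 passed (Cpt2, Acadvl and Ppara, all lower), against 24.5% of all genes. Only Ppara had groups without overlap, against 26.8% of all genes. DESeq2 called 2 (Cpt2 and Ppara). Flox MTX replicate 2 decides these values. Without it edgeR called 5 of 9 members lower in KO mice, with log2 fold changes of -1.30 for Cpt2, -1.05 for Acadvl, -0.995 for Acadl, -0.94 for Acadm and -1.66 for Ppara, and 20.8% of all genes tested were then called. That library had the highest macrophage sum (4672 CPM) and the lowest adipocyte sum (39425 CPM) of the flox MTX group, whose other libraries had 2784 and 869 CPM of macrophage and 65776 and 78332 CPM of adipocyte markers.

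MTX in flox mice gave higher estimates for 7 of the 9 members, all but Ppara and Cpt1b, with a median of 0.46 against 0.05 over all genes. No member was called, by edgeR or by DESeq2, while 24.2% of all genes were called by edgeR. Cpt1a and Hadha (0.52, SE 0.23, edgeR adjusted p = 0.137) passed an unadjusted p of 0.05, as did 34.2% of all genes, and no member had groups without overlap, against 28.3% of all genes. Leaving out flox MTX replicate 2 brought calls for Acadl (1.04), Hadha (0.75) and Hadhb (0.86), and leaving out flox vehicle replicate 4 for Cpt1a (0.69) and Hadhb (0.87), all higher under MTX. In the same fits 23.99% and 30.90% of all genes were called. In KO mice the median for MTX was 0.09, 0 of 9 were called by edgeR or DESeq2 (0% of all genes by edgeR and 1.39% by DESeq2), and 0 of 9 passed an unadjusted p of 0.05, against 7.97% of all genes. Cpt1a, Cpt1b and Hadha were higher under MTX without overlap, 3 of 9 against 20.7% of all genes. The difference between genotypes in the response to MTX was estimated as negative for 8 of 9 members (median -0.24). None was called by edgeR or DESeq2 (0.989% of all genes by edgeR), and none passed an unadjusted p of 0.05 (15.0% of all genes). The comparisons share control libraries, since flox vehicle mice enter both the genotype and the MTX comparison.

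The 6 enzymes of the inner membrane and matrix (Cpt2, Acadvl, Acadl, Acadm, Hadha and Hadhb) varied together from mouse to mouse. Pearson r on log2 CPM over the 12 libraries was 0.630 to 0.955 for their 15 pairs (median 0.839), and 0.817 to 0.977 for deviations from the group means. Cpt1a gave -0.222 to 0.549 with these 6 (median 0.096), and 0.116 to 0.437 for the deviations. The libraries share group, depth and cell composition, and these values are descriptions without a test. Flox MTX replicates 1 and 4 and flox vehicle replicate 4 had the highest mean profile of the 8 enzymes, and flox vehicle replicate 3, flox MTX replicate 2 and KO vehicle replicate 3 the lowest. The adipocyte sums were 65776, 78332 and 53047 CPM in the former and 26093, 39425 and 29454 CPM in the latter. The order was not the same throughout, since KO MTX replicate 3 had the lowest adipocyte sum (18635 CPM) and ranked 9 of 12 in the mean profile, and flox vehicle replicate 1 (56998 CPM) ranked 6. The 5 genes most like the mean profile of the 8 enzymes among 10141 genes with at least 10 mean CPM were Ipo9 (r = 0.974), Ppp1r7, Tmem109, Lrrc8d and Txndc15 (r = 0.941). Those most like Ppara were Clmn (r = 0.958), Raver2, Gm15519, Uri1 and Cachd1 (r = 0.951).

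**Figure D4:**
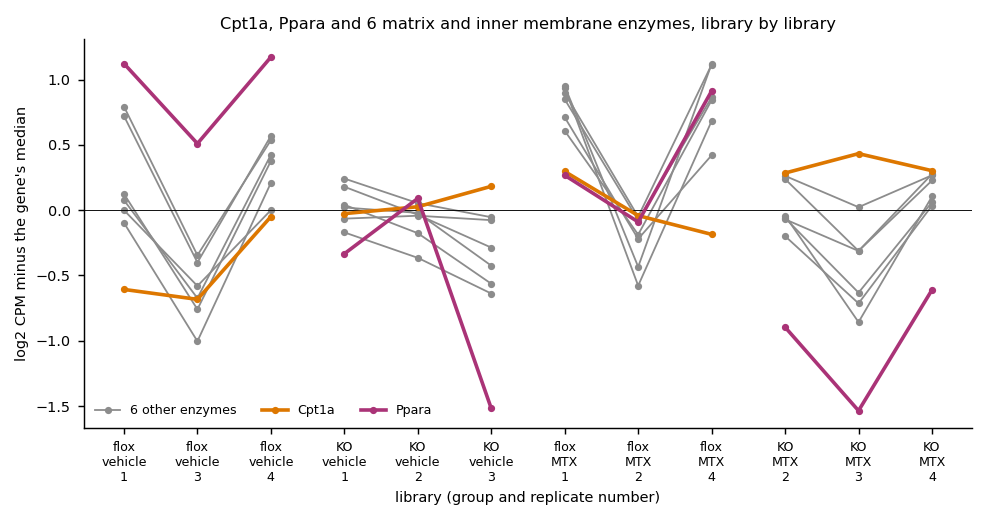
Log2 CPM minus the median of the gene over 12 libraries for Cpt1a, Ppara and the 6 enzymes of the inner membrane and matrix, with lines joining the 3 libraries of a group for legibility only. The 6 enzymes were low together in flox vehicle replicate 3 and flox MTX replicate 2, whereas Cpt1a was highest in KO MTX replicate 3 and Ppara was lowest in KO vehicle replicate 3 and KO MTX replicate 3.

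The genes around the members were read from lists of known function. Of 20 other genes of the carnitine shuttle and mitochondrial beta-oxidation, 4 were called lower and none higher in KO against flox mice under vehicle. They were the carnitine importer Slc22a5 (-1.67), Acadsb (-1.23), Acad10 (-0.88) and Acad11 (-1.06), and are named after their values were seen. Slc22a5 averaged 112 CPM in flox vehicle mice (57.1 to 175 CPM) and 35.2, 39.6 and 32.6 CPM in KO vehicle, flox MTX and KO MTX mice, so that it was high in the flox vehicle group alone, the group with the high sums of testis germ cell and epididymis markers, whose part in this difference was not tested. The direct partners of the members were not called, such as the carnitine-acylcarnitine carrier Slc25a20 (0.17, SE 0.30), the short-chain enzymes Acads (-0.24, SE 0.33) and Hadh (-0.39, SE 0.32), the thiolase Acaa2 (0.26, SE 0.22), the reductase Decr1 (-0.16, SE 0.38) and Etfdh (-0.29, SE 0.30), which passes electrons on to ubiquinone. Under MTX all 20 estimates were lower in KO mice (median -0.74), none was called by edgeR, 11 passed an unadjusted p of 0.05 and DESeq2 called 9. In flox mice MTX brought Acaa2 up (0.60, SE 0.22, edgeR adjusted p = 0.0763) and Slc22a5 down (-1.49), the latter against the same flox vehicle libraries.

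Peroxisomes begin the oxidation of very long chains. Under vehicle 6 of their 15 genes were called lower in KO mice (Ehhadh, Abcd3, Acox2, Acox3, Scp2 and Crot). Ehhadh, the bifunctional enzyme and a known PPARα target, was 59.5 CPM in flox and 21.0 CPM in KO vehicle mice on average (-1.50, SE 0.45, edgeR adjusted p = 0.0270). Under MTX it stood at -1.59 (SE 0.45, adjusted p = 0.109), again without overlap. Hsd17b4 (-0.41, SE 0.32), the multifunctional enzyme, was not called under vehicle. The list's median was -0.41 under vehicle and -0.63 under MTX, where none of the 15 was called and 9 passed an unadjusted p of 0.05 in the lower direction. In flox mice Acox2 and Acox3 were called lower under MTX. Acox3 averaged 245 CPM in flox vehicle mice (113 to 408 CPM). It averaged 70.0, 69.7 and 75.5 CPM in KO vehicle, flox MTX and KO MTX mice, so that it was high in the flox vehicle group alone. Acox2 was near the lower end of what could be counted, at 0.696 CPM on average in flox vehicle and 0.172 CPM in flox MTX mice. The part of the testis germ cell and epididymis RNA of the flox vehicle group in these differences was not tested.

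Of 12 receptors and coactivators, 3 were called lower in KO vehicle mice. Ppard, the more widely expressed relative of Ppara, was 50.4 CPM in flox and 29.2 CPM in KO mice (-0.79, SE 0.20, edgeR adjusted p = 0.0144), and Ppargc1a, the coactivator of mitochondrial genes, was 5.98 and 3.11 CPM (-0.94, SE 0.30, adjusted p = 0.0388). The corepressor Nrip1 was at -1.19. Pparg (-0.23, SE 0.31) and Esrra (0.29, SE 0.16) were not called. Under MTX Ppargc1a gave -1.51 (SE 0.31, edgeR adjusted p = 0.104), lower without overlap, which was not called by edgeR and was called by DESeq2 (adjusted p = 0.00108).

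Other textbook targets of PPARα did not share 1 direction. Of 13 listed, 11 could be tested, and under vehicle 3 were called lower in KO mice (Ucp3, Cyp4a14 and Cyp4a12a) and 1 higher (Creb3l3). Cyp4a12a, Cyp4a14 and Creb3l3 were at low levels, with group means of at most 12.4 CPM. Pdk4, which restrains glucose oxidation, was 66.2 CPM in flox and 142 CPM in KO vehicle mice (1.10, SE 0.51, edgeR adjusted p = 0.129). Its groups did not overlap, and DESeq2 called it higher in KO mice. Angptl4 (0.53, SE 0.40) and Acot2 (0.08, SE 0.17) were not called. In flox mice MTX raised Pdk4 to 197 CPM (1.57, SE 0.52, adjusted p = 0.0550), and Acot1, Cyp4a14 and Cyp4a12a were called lower.

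Malonyl-CoA inhibits CPT1, and 1 of the 9 genes that set its level was called under vehicle. This was Prkaa2, a catalytic subunit of AMP-activated kinase, at 9.43 CPM in flox and 5.12 CPM in KO mice (-0.88, SE 0.36, edgeR adjusted p = 0.0898). Acacb, which makes the mitochondrial pool, was at -1.20 (SE 0.72) and Mlycd, which removes it, at 0.01 (SE 0.24), neither of them called. Among 18 mitochondrial genes outside this pathway, Sdha (-0.64, SE 0.27) and Ndufs1 (-0.67) were called lower and none higher, while Cs (-0.22, SE 0.33) and Cox4i1 (-0.46, SE 0.22) were not called. The median of this list was -0.28 under vehicle and -0.61 under MTX, beside -0.39 and -0.66 for the members.

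Markers of cell types moved beside these genes. In KO against flox mice under vehicle, 12 of 12 macrophage markers were called higher (Adgre1 2.46, Cd68 3.80), as were 8 of 10 endothelial markers (Pecam1 1.20). Of 14 adipocyte markers, 5 were called lower, and Adipoq (-0.79, SE 0.51) and Plin1 (-0.71, SE 0.42) were not called. All 10 testis germ cell markers were called lower (Prm1 -7.94), with sums of 277 to 717 CPM in flox vehicle and 34.3 to 60.1 CPM in the other groups, and so were 6 of the 8 epididymis markers tested (Crisp1 -10.12). Brown and beige markers (8 genes) had none called, and their sums were 20.3 to 77.7 CPM over all libraries, with Ucp1 at 0 to 9.93 CPM in flox vehicle mice (mean 3.42 CPM, carried by 1 library) and at mean levels of at most 0.654 CPM in the other groups. Of 7 skeletal muscle markers tested, Pvalb and Mb were called, in opposite directions, and Acta1 was at -0.36 (SE 0.33). Under MTX the median of the adipocyte markers was -1.32 in KO against flox mice and 11 of 14 passed an unadjusted p of 0.05. In flox mice MTX brought 11 of 12 macrophage markers and none of the adipocyte markers past the limits.

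**Figure D5:**
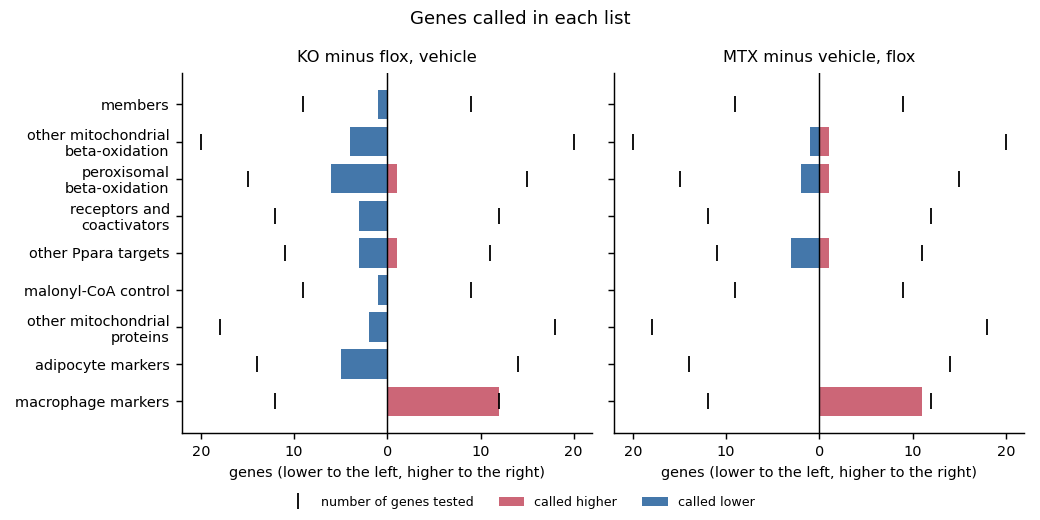
Number of genes called higher (red, to the right) and lower (blue, to the left) by edgeR in each list for KO against flox under vehicle (left) and MTX against vehicle in flox mice (right), with ticks at the number of genes tested. Of the members, 1 of 9 was called lower in the left panel and none in the right, whereas 12 and 11 of 12 macrophage markers were called higher.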

How the data were processed

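RNA of eWAT from 12 mice was sequenced. The authors trimmed the reads (Trimmomatic 0.36), aligned them to GRCm38 with STAR 2.5.2b and counted them per gene with featureCounts (Subread 1.5.2), per the methods and the submitters' processing notes. The methods describe ribosomal depletion and the labels polyA RNA, and the strand setting is not stated. The deposited values are raw counts without normalization (49315 genes), and 0 columns lacked a sample. Groups were taken from the labels.

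The counts were analysed in R 4.3.3 with edgeR 4.0.16 (TMM, filterByExpr by group, 1 coefficient per group, glmQLFit, quasi-likelihood F-test), which left 18702 genes. P-values were adjusted over all of them, and calls needed an adjusted p below 0.1 and a fold of at least 1.5. SE is the log2 fold change divided by the root of F. Profiles used log2-CPM with a prior count of 2. P-values measure the spread between 3 mice per group, and a count of 0 allows up to 3 counts by counting error. DESeq2 1.42.0, other scalings, filters and limits, and each library left out in turn were the alternatives. Fits were tested on simulated data. Libraries of a group differed by more than sampling noise (lowest chi-square 12.9 per degree of freedom), so none was a duplicate. Exact permutation tests were two-sided.

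The members and lists were chosen with earlier results of these data known. All 9 members are named. Other genes were named from a fixed set, with the 5 genes most like the enzymes and the 5 most like Ppara, and further called genes were named after their values were seen. Authors' own comparisons were not used. Some listed genes are not reported here.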

Additional observations from a re-analysis of the deposited data

How the results depend on the processing

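Of 107 counts of called members under 22 alternatives in 5 comparisons, 97 stayed the same. The response to MTX in KO mice had 0 called members in each, against 0% to 1.39% of all genes. The interaction also had 0 in each, against 0% to 7.07% of all genes. In KO against flox under vehicle the count was 2 without a fold limit (Cpt1a and Ppara), against 37.9% of all genes. It was 0 to 2 with 1 library left out, against 23.7% to 35.0% of all genes. The 0 came without KO vehicle replicate 3, where 23.7% were called. Without both flox vehicle replicates 1 and 3, an alternative chosen after seeing the data, the log2 fold change of Ppara was -1.66. Under MTX the count was 1 with at least 10 counts in every library (Ppara, Cpt1b being lost to the filter), against 10.6% of all genes. With DESeq2 it was 2, against 16.6%, and with 1 library left out 0 to 5, against 0% to 20.8%. For MTX in flox mice it was 0 to 3 with 1 library left out, against 11.7% to 30.9% of all genes. The cause was not tested.

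Single members that changed sign were not called in the comparison concerned. With the replicate block, Acadm under vehicle was 0.051, Hadha under MTX 0.016, Acadm for MTX in KO mice -0.10 and the Ppara interaction 0.23. When only library size was used for scaling, which moved the median of all genes by 0.17 for the genotypes under MTX, -0.20 for MTX in flox mice and 0.18 for the interaction, Hadha under MTX was 0.029, Acadm for MTX in KO mice -0.028, and the interaction 0.069 for Hadhb and 0.19 for Ppara. With at least 10 counts, Acadm for MTX in KO mice was -0.027 and the Ppara interaction 0.011. With only the libraries of the comparison, Acadm for MTX in KO mice was -0.024. The Ppara interaction was 0.0022 with RLE factors and 0.0035 with DESeq2. Without both flox vehicle replicates, Acadl (-0.12) and Hadha (-0.055) under vehicle and the interaction of Cpt1a (0.19), Hadhb (0.28) and Ppara (0.20) turned. With 1 library left out, the ranges were -0.47 to 0.047 for Acadm and -0.061 to 0.21 for Hadha under vehicle, -0.38 to 0.077 for Hadha under MTX, -0.18 to 0.25 for Acadm and -0.056 to 0.22 for Acadvl for MTX in KO mice, and -0.52 to 0.028 for Acadvl, -0.39 to 0.12 for Hadhb and -0.36 to 0.38 for Ppara in the interaction.

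The labels do not say whether the replicate numbers pair the mice. Deviations of 12 pairs with the same number correlated with a median r of 0.035 (-0.27 to 0.25, 3 above 0.1). For 42 other pairs the median was 0.011 (-0.38 to 0.45). With such wide, overlapping ranges these values cannot decide whether mice were paired. With the replicate block the counts of called members were unchanged (1 and 0 for the genotypes, 0 for MTX and the interaction). In that fit 27.2% and 0% of all genes were called for the genotypes under vehicle and MTX. For MTX in flox and KO mice the shares were 14.8% and 0%, and for the interaction 0%. The median of the members was -0.083 instead of -0.39 under vehicle and -0.30 instead of -0.66 under MTX. Depth limits Ppara and Cpt1b most, at 15 to 112 and 5 to 45 counts per library.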
